A study of Mus musculus with 8 samples.

Results

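The aldehyde dehydrogenases are a gene family of enzymes that oxidize aldehydes to carboxylic acids. The activity of some of them is what the ALDH assay for stem-like cells reads, and no such activity was measured here. The 10 genes described here, Aldh1a1, Aldh1a3, Aldh3a1, Aldh3a2, Aldh3b1, Aldh2, Aldh1b1, Aldh1l2, Aldh7a1 and Aldh9a1, were listed by name and matched by symbol to the Ensembl identifiers of the count table. Of the 10, 9 were matched among 16341 counted genes, and Aldh1a3 was not analysed here. A minimum on low counts kept 8 of the 9 among 11717 tested genes, and Aldh1b1 fell below it. The RNA-Seq libraries came from 4T1, a mouse mammary carcinoma line, separated by the surface protein SCA1, which the gene Ly6a encodes. Both groups, 4T1-Sca1+ and 4T1-Sca1-, had 4 libraries and the same gate on CD45, the common leukocyte protein, for which the sorted cells were negative, and neither carried a drug treatment or an engineered allele in the labels. The labels give the parental line as the source but speak of stained tumor in the protocol. The study describes the profiled cells as isolated from the parental line. Whether each replicate was sorted on its own is not stated, so the p-values measure the spread between these libraries, which may be technical. Magnetic columns enrich for a marker and do not give pure fractions, so each group may hold some cells of the other.

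Ly6a followed the labels, with 145 to 193 normalized counts in Sca1+ and 0 to 4.11 in Sca1-. Normalized counts are counts divided by 1 scaling factor per library. Libraries held 13561804 to 16968215 counts in genes. Epithelial markers were abundant in both groups (8 of 9 tested). They summed to 3855 to 4194 CPM (counts scaled to the library total) in Sca1+ and 3917 to 4219 in Sca1-. Of the 8, 2 were higher in Sca1+, Krt18 (log2 fold change 0.38) and Krt8 (0.31). Another 4 were lower, led by Cdh1 (-0.69) and Cldn4 (-0.62). Ptprc, which encodes CD45, had at most 4 counts in any library. In all, 7 of 12 leukocyte and 5 of 7 endothelial markers were at 10 counts or fewer everywhere or were not counted. Of the 5 leukocyte markers tested, 4 were higher in Sca1+ (log2 fold change 2.38 for S100a8, 1.18 for Csf1r, 0.94 for Cd74 and 0.65 for Cd68) and Cd14 was lower (-0.29), and the whole list summed to 73.5 to 77.7 CPM in Sca1+ and 69.4 to 75.9 in Sca1-. The 1 endothelial marker tested, Tie1, was lower (-0.60). Of the 9 fibroblast markers, 7 were counted, and they summed to 42.0 to 44.5 CPM in Sca1+ against 26.0 to 30.6 in Sca1-. Of the 3 tested, 2 were higher, Pdgfra and Col1a1. Pdgfra, the most abundant, was at 560 ± 26.1 against 364 ± 25.6 normalized counts (SD, n = 4 each, log2 fold change 0.63). Col1a1 was at 47.6 ± 10.6 against 28.6 ± 3.93 (0.75), and Postn did not pass the test (0.05). The untested ones were scarce. Dcn (11.4 against 1.06) and Pdgfrb (6.19 against 0.257) had higher means in Sca1+. Fap (0.958 against 2.96) and Col1a2 (4.43 against 4.61) had lower ones. The part of leukocyte, endothelial and fibroblast markers in the results below was not tested. In bulk RNA, fewer cells that express a gene and less RNA per cell cannot be told apart.

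The members differ in where they work and on what. Aldh1a1 and Aldh1a3 make retinoic acid from retinaldehyde, and Aldh1a1, Aldh1a3 and Aldh3a1 are often used as markers of stem-like or drug-resistant tumor cells. The products of Aldh3a1, Aldh3a2 and Aldh3b1 act on aldehydes of lipids. Those of Aldh2 and Aldh1b1 sit in mitochondria and clear acetaldehyde and other small aldehydes. Those of Aldh1l2, Aldh7a1 and Aldh9a1 are grouped here by 1 route each, mitochondrial folate, lysine breakdown and carnitine synthesis, not necessarily their only one.

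In Sca1+, 6 of the 8 tested members were higher, 1 was lower and 1 did not pass the test. In the same test, edgeR's quasi-likelihood test with Benjamini-Hochberg adjustment, 31.3% of all tested genes were higher, 30.2% were lower and 61.5% differed in either direction, so a call by itself says little about a gene in this comparison. The sizes differed widely among the members. Aldh3a1 was 9.39-fold higher, Aldh3a2 was 2.00-fold higher, Aldh1a1 and Aldh3b1 were 1.96-fold and 1.73-fold higher, and Aldh2 was 1.20-fold higher. Aldh9a1 and Aldh7a1 were within 1.10-fold, in opposite directions. Of all tested genes, 612 were called higher with at least a 2-fold difference, with Aldh3a1 well inside. Aldh3a2 missed that mark by rounding (log2 fold change 0.999) and passed it under some alternatives (1.04 with library totals alone or GC-corrected offsets, 1.03 with upper-quartile scaling).

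**Figure D1:**
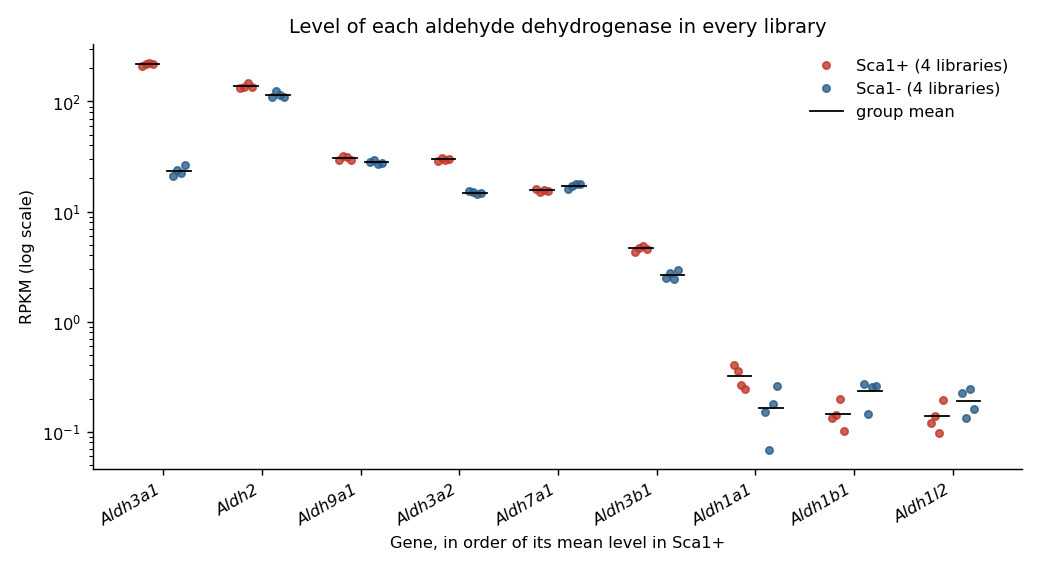
Level of each counted member in every library, in RPKM (counts scaled to exon length and to the library total) on a log axis, with 4 points per group and a bar at each group mean. Aldh3a1 lies between 210 and 222 RPKM in Sca1+ and between 20.9 and 26.2 in Sca1-, while Aldh1a1, Aldh1b1 and Aldh1l2 stay below 1 RPKM in every library.

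All 3 lipid-aldehyde genes were higher in Sca1+. Aldh3a1 (ENSMUSG00000019102, chr11:61207537-61218421 of GRCm38, plus strand) encodes an enzyme that is abundant in the cornea and oxidizes aldehydes from lipid peroxidation. Its normalized counts were 6149, 6488, 6553 and 6475 in Sca1+ replicates 1 to 4 and 618, 702, 663 and 777 in Sca1- replicates 1 to 4. Every Sca1+ library held several times the count of any Sca1- library, and the spread within each group was small beside that gap. The log2 fold change was 3.23 ± 0.06 (SE, adjusted p = 7.4e-17, edgeR), and 31 of the 11717 tested genes had a higher one. Among tested genes, 7.00% had more counts than Aldh3a1. The study itself reported higher Aldh3a1 and Aldh1a1 in 4T1-SCA1+ than in 4T1-SCA1- cells from its RNA-Seq data. It also placed Aldh3a1 in a signature that it drew from these same libraries. The Aldh3a1 difference given here is therefore not independent of that report or of that choice.

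Aldh3a2 (ENSMUSG00000010025, chr11:61223417-61267464, minus strand) encodes the fatty aldehyde dehydrogenase of the endoplasmic reticulum, the enzyme missing in Sjögren-Larsson syndrome. It lies next to Aldh3a1, pointing toward it, with 4995 bases between their 3′ ends. Sca1+ libraries held 2458, 2611, 2520 and 2525 normalized counts of Aldh3a2, and Sca1- libraries held 1314, 1288, 1227 and 1274. The groups did not overlap, and the log2 fold change was 1.00 ± 0.04 (SE, adjusted p = 3.8e-12, edgeR). Within a library, Aldh3a1 counts were 2.54 ± 0.05 times those of Aldh3a2 in Sca1+ and 0.542 ± 0.06 times in Sca1- (SD, n = 4 each). On the log2 scale that ratio differed by 2.23 between the groups (exact permutation test over the 70 regroupings of 4 against 4 libraries, two-sided, p = 0.0286, the smallest it can give, and 0.0571 after adjustment over 2 ratios). This ratio does not depend on how libraries were scaled. In these libraries the adjacent genes differed between the groups to unequal degrees, although the adjusted p of the permutation test was above 0.05.

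The genes around this pair did not share its pattern as a block. Within 500 kb on either side, 18 other genes were tested, of which 5 were higher and 5 lower in Sca1+. Of all tested genes, 31.3% were higher and 30.2% lower, so these counts by themselves say little about the locus. The 18 genes had a median log2 fold change of -0.09 and a range of -0.34 to 1.57. Usp22, the nearest tested gene upstream of Aldh3a1, had 2685 normalized counts in Sca1+ and 2682 in Sca1- on average, with a log2 fold change of 0.01. The top of the range was Kcnj12, a potassium channel gene picked out here after its values were seen, at 19.0 against 6.42 normalized counts. Shmt1, an enzyme of folate metabolism, and Dhrs7b, a short-chain dehydrogenase, lie in the same window at log2 fold changes of 0.06 and -0.32.

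**Figure D2:**
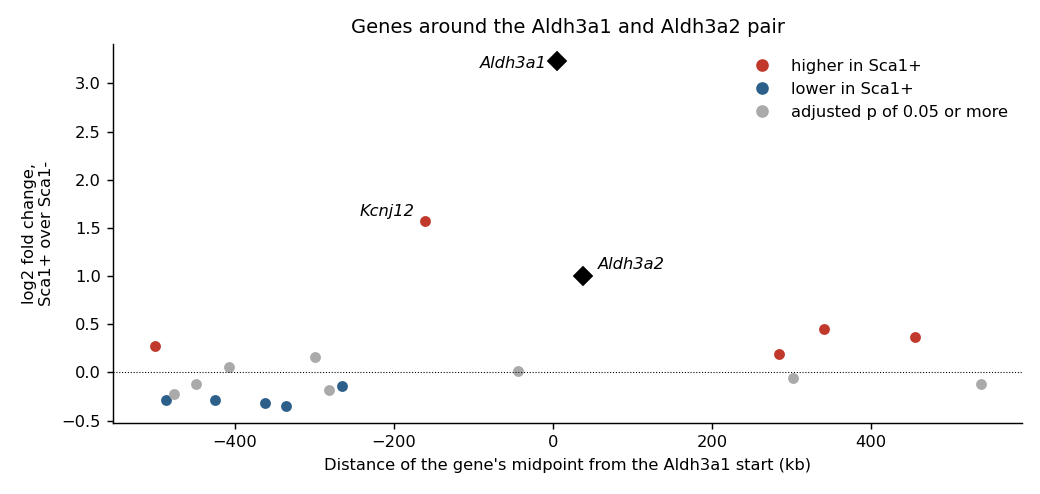
log2 fold change of Sca1+ over Sca1- for each tested gene within 500 kb of the Aldh3a1 and Aldh3a2 pair, against the distance of its midpoint from the Aldh3a1 start in kb, with color giving the call at an adjusted p of 0.05. Aldh3a1 at 3.23 and Aldh3a2 at 1.00 are drawn as diamonds, and apart from Kcnj12 at 1.57 every other gene lies between -0.34 and 0.45.

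Aldh3b1 (ENSMUSG00000024885, chr19:3913491-3929808, minus strand) encodes a membrane-bound enzyme for medium- and long-chain aldehydes. Its normalized counts were 133, 144, 153 and 143 in Sca1+ and 78.3, 86.2, 75.7 and 92.5 in Sca1-. All Sca1+ libraries lay above all Sca1- libraries, with a log2 fold change of 0.79 ± 0.10 (SE, adjusted p = 3.8e-06, edgeR). Of 75-base words in its longest transcript, 3.08% also occur in its paralogs Aldh3b3 and Aldh3b2. Aldh3b2 itself had at most 1 count in any library, and Aldh3b3 was not analysed here.

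The start regions of the lipid-aldehyde genes Aldh3a2 and Aldh3b1 are shown with 3 motifs of the pathways listed further on, beside that of Aldh9a1, a member that differed little. The sequences are the bases upstream of the RefSeq start on GRCm38.p6, 5′ to 3′ along the gene, from chr11:61267187-61267436 (minus strand), chr19:3929809-3930028 (minus strand) and chr1:167349741-167349990 (plus strand). Bases of Aldh3b1 inside a coding transcript's first exon were left off (30 bases), and 198 of the 250 bases of Aldh3a2 lie in exons of noncoding transcripts of the same gene. Capitals mark matches, on either strand, to GCGTG (the core of the aryl hydrocarbon receptor site), TGACNNNGC (the antioxidant response element) or AGGTCA (the half-site of retinoic acid receptors).
Aldh3a2: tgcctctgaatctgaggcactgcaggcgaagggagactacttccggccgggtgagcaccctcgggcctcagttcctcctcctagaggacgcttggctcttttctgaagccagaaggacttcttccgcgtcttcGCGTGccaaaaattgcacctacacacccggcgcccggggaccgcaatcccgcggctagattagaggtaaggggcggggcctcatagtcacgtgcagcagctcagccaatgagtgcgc
Aldh3b1: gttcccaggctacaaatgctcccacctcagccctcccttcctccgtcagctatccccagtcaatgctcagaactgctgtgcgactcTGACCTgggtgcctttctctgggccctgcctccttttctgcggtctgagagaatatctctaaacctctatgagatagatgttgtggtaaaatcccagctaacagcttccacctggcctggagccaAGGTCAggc
Aldh9a1: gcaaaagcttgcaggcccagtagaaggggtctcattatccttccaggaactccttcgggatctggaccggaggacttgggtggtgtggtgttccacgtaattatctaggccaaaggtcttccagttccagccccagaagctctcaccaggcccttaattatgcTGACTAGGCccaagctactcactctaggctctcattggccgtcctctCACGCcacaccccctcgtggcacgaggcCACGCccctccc
Aldh3a2 held 1 match to GCGTG, 117 bases upstream of its start, and Aldh3b1 held 2 matches to AGGTCA, 164 and 39 bases upstream. Aldh9a1, 1.08-fold apart in level, held 2 matches to GCGTG and 1 to TGACNNNGC. No match overlapped another. Among 32851 RefSeq promoters cut to the same 250 bases, 28.2% hold GCGTG, 10.2% hold TGACNNNGC and 14.0% hold AGGTCA. A RefSeq entry was found for 5 of the 10 members, and those of Aldh1b1 and Aldh1a1 (2 starts) held none of the 3 motifs. Aldh3a1 was among the members without an entry, so its start region was not scanned. A match describes letters and not a bound site.

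Among the mitochondrial enzymes, Aldh2 (ENSMUSG00000029455, chr5:121566027-121593824, minus strand), which clears the acetaldehyde made from ethanol, had the most counts of any member. Its normalized counts were 10362, 10422, 11498 and 10576 in Sca1+ and 8572, 9696, 9029 and 8592 in Sca1-. The groups did not overlap, but the gap between the lowest Sca1+ and the highest Sca1- library was smaller than the spread within either group. The log2 fold change was 0.27 ± 0.05 (SE, adjusted p = 1.2e-04, edgeR), and 1.28% of tested genes had more counts.

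Aldh1b1 (ENSMUSG00000035561, chr4:45799022-45804604, plus strand), a mitochondrial relative of Aldh2, was close to the limit of detection, with 5, 5, 7 and 4 counts in Sca1+ and 10, 5, 8 and 8 in Sca1-. The groups overlapped, and the gene was not tested. With no minimum on low counts its log2 fold change was -0.71 ± 0.45 (SE, adjusted p = 0.20, edgeR, and 0.11 to 0.20 over the 3 fits that kept it), so a difference was not detectable at this depth. The log2 ratio of Aldh2 to Aldh1b1 counts within a library was 11.1 ± 0.36 in Sca1+ and 10.1 ± 0.50 in Sca1- (SD, n = 4 each, exact permutation test, two-sided, p = 0.0571, also 0.0571 after adjustment over 2 ratios).

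Aldh1a1 (ENSMUSG00000053279, chr19:20492715-20643465, plus strand), the cytosolic retinaldehyde dehydrogenase often named first among stem cell markers of this family, was scarce. Its counts were 33, 27, 20 and 21 in Sca1+ and 12, 5, 12 and 17 in Sca1-, or 101 against 46 in all. After scaling, the lowest Sca1+ library (18.4 normalized counts) lay below the highest Sca1- library (19.4), so the groups overlapped. The log2 fold change was 0.97 ± 0.30 (SE, adjusted p = 9.6e-03, edgeR), with a 95% interval from 0.38 to 1.57. Among tested genes, 95.6% had more counts than Aldh1a1. Per kilobase of exon, Aldh3a1 stood 518 to 896 times above Aldh1a1 in Sca1+ and 102 to 348 times above it in Sca1-.

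Aldh1a1 has a rodent paralog, Aldh1a7, on the same chromosome, and the start regions are shown to let their likeness be read. They are upstream bases from RefSeq on GRCm38.p6, 5′ to 3′ along each gene, at chr19:20601718-20601960 (plus strand, the second of 2 starts listed for Aldh1a1) and chr19:20727563-20727806 (minus strand). Capitals mark the longest run that both share, 65 bases.
Aldh1a1: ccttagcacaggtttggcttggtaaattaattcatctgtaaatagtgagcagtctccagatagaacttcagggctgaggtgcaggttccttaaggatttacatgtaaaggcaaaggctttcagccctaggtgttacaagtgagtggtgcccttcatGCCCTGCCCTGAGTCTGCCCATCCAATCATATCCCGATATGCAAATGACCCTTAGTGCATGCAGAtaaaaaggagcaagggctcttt
Aldh1a7: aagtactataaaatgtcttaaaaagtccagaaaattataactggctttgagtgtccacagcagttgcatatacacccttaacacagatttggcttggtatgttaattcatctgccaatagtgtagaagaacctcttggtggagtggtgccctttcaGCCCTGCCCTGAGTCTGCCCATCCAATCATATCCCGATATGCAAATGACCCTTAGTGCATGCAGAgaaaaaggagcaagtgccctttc
In the transcripts, 2.19% of 75-base words of Aldh1a1 also occur in Aldh1a7, so a small part of the reads cannot be assigned between them. Aldh1a7 had 5, 6, 3 and 2 counts in Sca1+ and 0, 1, 0 and 2 in Sca1-, and was not tested. With no minimum on low counts it was higher in Sca1+ (log2 fold change 2.09 ± 0.84, SE, adjusted p = 0.035, edgeR, and 0.0097 to 0.035 over the 3 fits that kept it), although the groups shared a library count of 2. Counted together, the paralogs came to 1.82 ± 0.47 CPM in Sca1+ and 0.863 ± 0.42 in Sca1- (SD, n = 4 each), with ranges of 1.33 to 2.30 and 0.403 to 1.42 that overlapped.

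The members grouped above by metabolic route showed small or no called differences. Aldh9a1 (ENSMUSG00000026687, chr1:167349991-167368532, plus strand), which oxidizes trimethylaminobutyraldehyde on the way to carnitine, had 1504, 1621, 1607 and 1500 normalized counts in Sca1+ and 1467, 1522, 1394 and 1420 in Sca1-. The groups overlapped, and the log2 fold change of 0.11 ± 0.05 (SE) was at the threshold (adjusted p = 0.046, edgeR). Of 19 alternative fits, 11 did not call it. Its log2 fold change was 0.09 without Sca1+ replicate 2, 0.10 without Sca1+ replicate 3, 0.11 without Sca1- replicate 1, 0.10 without Sca1- replicate 3 and 0.10 without Sca1- replicate 4, and it was not called in any of these 5.

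Aldh7a1 (ENSMUSG00000053644), the antiquitin gene of lysine breakdown, had 1257, 1191, 1228 and 1204 normalized counts in Sca1+ and 1262, 1359, 1396 and 1393 in Sca1-. It was the 1 member called lower, with a log2 fold change of -0.13 ± 0.05 (SE, adjusted p = 0.023, edgeR). The highest Sca1+ and the lowest Sca1- library were nearly level, at 1257 and 1262, so the groups were barely apart. Leaving out Sca1+ replicate 2 (-0.12), Sca1+ replicate 4 (-0.13), Sca1- replicate 3 (-0.12) or Sca1- replicate 4 (-0.12) ended the call. Exons of Aldh7a1 overlap Phax on the opposite strand, 3.87% of its 75-base words are shared with it, and Phax was itself lower in Sca1+ (log2 fold change -0.24 ± 0.07, SE, adjusted p = 4.6e-03, edgeR). The library kit does not mark strand, so reads in the overlap cannot be told apart.

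Aldh1l2 (ENSMUSG00000020256, chr10:83487450-83534140, minus strand), the mitochondrial 10-formyltetrahydrofolate dehydrogenase, had 15, 16, 11 and 25 counts in Sca1+ and 27, 15, 25 and 16 in Sca1-. The groups overlapped and no difference was called (log2 fold change -0.46 ± 0.27, SE, adjusted p = 0.15, edgeR, 95% interval -0.98 to 0.06). Of its 75-base words, 16.5% are shared with D10Wsu102e, an overlapping gene of the opposite strand with 12134 counts over the 8 libraries, so reads of the overlap cannot be told apart there either.

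**Figure D3:**
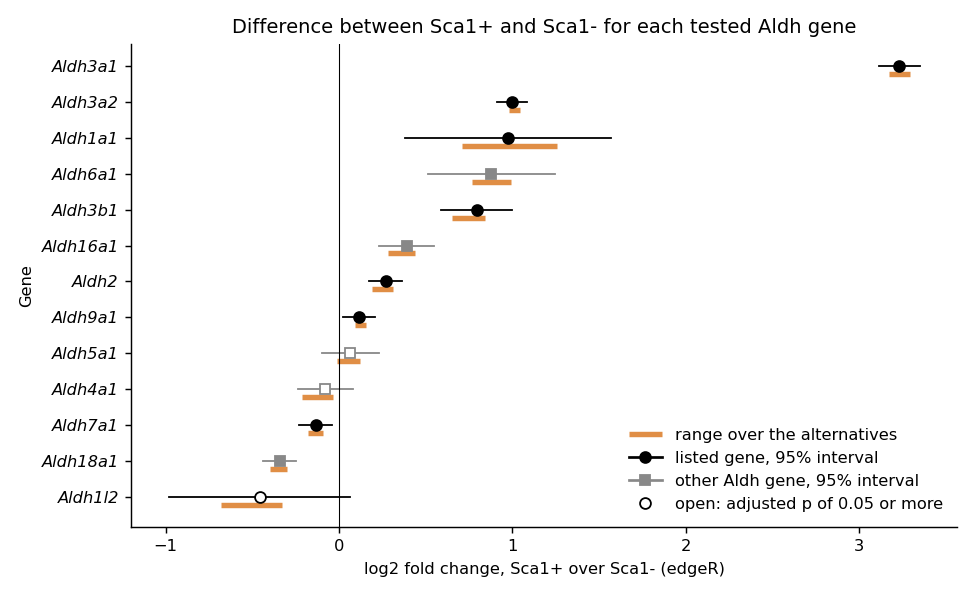
log2 fold change of Sca1+ over Sca1- for the 8 tested members (black circles) and 5 other tested Aldh genes (gray squares), with 95% intervals as thin lines and the range over the alternative settings as thick orange lines below each. Aldh3a1 at 3.23 stands apart from the next member, Aldh3a2 at 1.00, and open symbols mark Aldh1l2, Aldh4a1 and Aldh5a1, which did not pass the test.

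The make-up of the family was compared per kilobase of exon, since longer genes collect more reads at the same level. In RPKM, the 9 counted members summed to 438 ± 11.7 in Sca1+ and 201 ± 7.70 in Sca1- (SD, n = 4 each), a ratio of 2.17. Without Aldh3a1 the sums were 219 ± 7.15 and 178 ± 7.18, a ratio of 1.23. Of the difference of 236 RPKM between the sums of the 9 members, Aldh3a1 made up 82.6% and Aldh2 made up 23.5 RPKM. Over all counted Aldh genes the sums were 474 ± 11.9 in Sca1+ and 240 ± 8.43 in Sca1-, a ratio of 1.97. These sums and the 82.6% rest on division by exon length and were not worked out without it. Shares with no division by length, given below, are smaller for Aldh3a1 in both groups.

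In Sca1+ the order of mean levels ran from Aldh3a1 (218 RPKM) and Aldh2 (138) through Aldh9a1 (30.4), Aldh3a2 (29.8), Aldh7a1 (15.6) and Aldh3b1 (4.62) to Aldh1a1 (0.319), Aldh1b1 (0.144) and Aldh1l2 (0.137). Neighbours in this order did not overlap between libraries except for Aldh9a1 with Aldh3a2 and Aldh1b1 with Aldh1l2. In Sca1- the order was Aldh2 (115 RPKM), Aldh9a1 (28.1), Aldh3a1 (23.3), Aldh7a1 (17.1), Aldh3a2 (14.9), Aldh3b1 (2.66), Aldh1b1 (0.233), Aldh1l2 (0.191) and Aldh1a1 (0.164), with overlap between neighbours only among the last 3. Aldh3a1 thus stood at place 1 in Sca1+ and at place 3 in Sca1-, and Aldh3a2 stood above Aldh7a1 in Sca1+ and below it in Sca1-. These places depend on the length used. With the longest transcript as length, Aldh3a1 (9.92% of the sum) stood at place 4 in Sca1-, behind Aldh3a2 (10.3%). The Sca1- libraries of these genes overlapped (9.22 to 11.3% and 9.81 to 11.0%). Aldh3a2 was then above Aldh7a1 (8.13% in Sca1-) in both groups. With no division by length, Aldh3a1 stood at place 2 in Sca1+ and at place 5 in Sca1-.

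As a share of the summed level, Aldh3a1 made up 49.6, 50.4, 49.2 and 50.5% in the Sca1+ libraries and 10.8, 11.2, 11.2 and 13.1% in the Sca1- libraries. Aldh2 made up 31.6, 30.7, 32.7 and 31.3% in Sca1+ and 56.7, 58.3, 57.8 and 55.0% in Sca1-. The share of Aldh2 was thus smaller in Sca1+ although its level was higher there. Shares of Aldh9a1 (6.96 ± 0.21 against 14.0 ± 0.52%) and Aldh7a1 (3.56 ± 0.16 against 8.50 ± 0.38%) were also smaller in Sca1+, and that of Aldh3a2 was 6.80 ± 0.20 against 7.40 ± 0.39%. The direction for Aldh3a2 depended on the length and the denominator, since its share was 11.2% in Sca1+ against 9.21% in Sca1- with no division by length, 6.28 against 6.20% over all counted Aldh genes and 9.94 against 10.3% with the longest transcript as length, the groups overlapping in the latter pair. Together, Aldh3a1, Aldh2, Aldh3a2 and Aldh9a1 held 95.2 ± 0.14% in Sca1+ and 89.9 ± 0.49% in Sca1-. The share of Aldh1a1 was 0.073 ± 0.02% in Sca1+ and 0.082 ± 0.04% in Sca1-, with overlapping libraries. Shares are not independent of each other, and no test was made on them. Taken as plain counts, with no division by length, Aldh2 kept the larger share in Sca1+ too, at 47.3% against 28.4% for Aldh3a1, which has a much shorter exon length (1942 against 5126 bases).

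**Figure D4:**
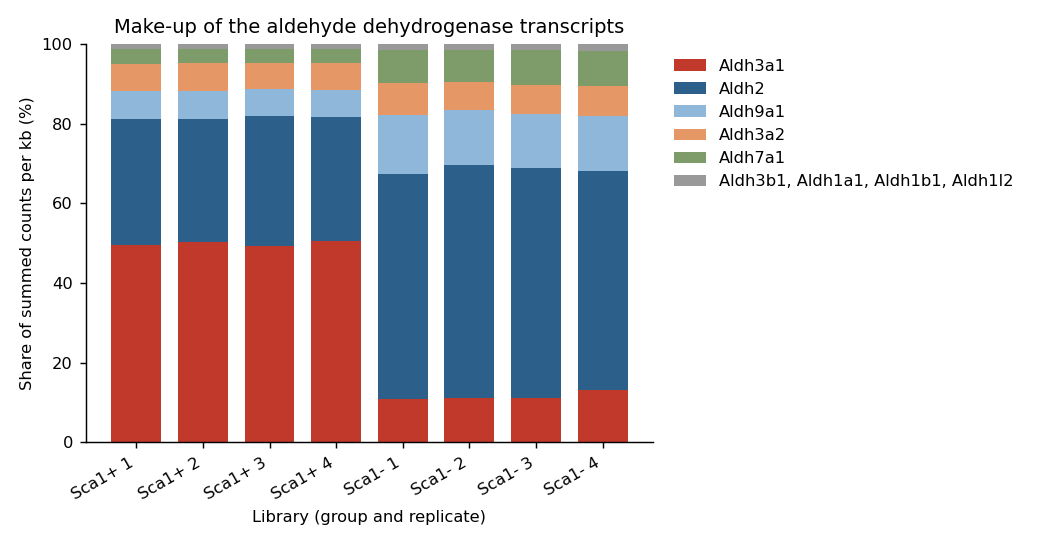
Share of each member in the summed counts per kilobase of the 9 counted members, one stacked bar per library, from 0 to 100%. Aldh3a1 takes 49.2 to 50.5% of the 4 Sca1+ bars and 10.8 to 13.1% of the 4 Sca1- bars, where Aldh2 takes 55.0 to 58.3%.

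Of the tested members, Aldh3a1, Aldh3a2, Aldh3b1, Aldh2 and Aldh7a1 had groups that did not overlap in normalized counts, 5 of 8, where 54.7% of all tested genes did so.

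Among the other Aldh genes, 9 were counted and 5 tested, of which 2 were higher and 1 lower. Aldh6a1, an enzyme of valine breakdown, was higher at 45.7, 49.3, 53.9 and 36.8 normalized counts in Sca1+ against 25.8, 26.7, 18.9 and 29.7 in Sca1- (log2 fold change 0.88 ± 0.19, SE, adjusted p = 5.7e-04, edgeR). Aldh16a1 was higher at 777 ± 89.1 against 599 ± 60.2 (log2 fold change 0.39 ± 0.08, SE), though it overlaps Pih1d1 on the opposite strand. Aldh18a1, which starts proline synthesis, was lower at 1259 ± 47.2 against 1611 ± 69.8 normalized counts (SD, n = 4 each, log2 fold change -0.34 ± 0.05, SE). Aldh4a1 of proline breakdown (-0.08 ± 0.08) and Aldh5a1 of GABA breakdown (0.06 ± 0.08) did not pass the test. Aldh1a2, another retinaldehyde dehydrogenase, had 2 counts over the 4 Sca1+ libraries and 0 in Sca1-, and Aldh8a1 had 2 against 9, both below the minimum. Without that minimum Aldh8a1 was at -2.07 ± 0.99 (SE, adjusted p = 0.081, edgeR) and was called lower in the other 2 fits that kept it (limma on the log2 normalized values, adjusted p = 0.013 in each), with groups that did not overlap.

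Genes that work beside the members were read from lists with the members taken out, each beside the shares of all tested genes given above and their median log2 fold change of 0.01. In the retinoic acid list, 10 of 14 tested genes were higher and 3 lower, with a median of 0.48. Stra6, the retinol uptake receptor, was at 702 ± 30.9 against 154 ± 25.5 normalized counts (log2 fold change 2.20 ± 0.09, SE). Cyp26b1, which degrades retinoic acid, was at 193 ± 18.3 against 32.2 ± 5.78 (2.60 ± 0.13). Dhrs9, a retinol dehydrogenase, and Rxra, a nuclear receptor of the pathway, were higher by 0.88 ± 0.10 and 0.61 ± 0.05. Rdh10, which makes retinaldehyde from retinol, was among the 3 that were lower, at 591 ± 18.9 against 851 ± 57.4 (-0.52 ± 0.06). Values after ± beside counts are SD over 4 libraries, and those beside log2 fold changes are SE.

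In the list of the aryl hydrocarbon receptor and its targets, to which Aldh3a1 belongs in the literature, 5 of the 8 other tested genes were higher and 1 was lower, with a median log2 fold change of 1.00. Nqo1, a quinone reductase, was at 809 ± 68.4 against 261 ± 13.5 normalized counts (1.65 ± 0.07), and Cyp1b1, a cytochrome P450, at 1218 ± 46.3 against 495 ± 41.0 (1.31 ± 0.06). The receptor gene Ahr was higher by 0.68 ± 0.06. Tiparp, another target of the receptor, was lower at 1104 ± 125 against 1321 ± 121 (-0.25 ± 0.08), and Cyp1a1, its classic target, had at most 7 counts in any library and was not tested. The largest differences on the list were in 2 scarcer genes, named after their values were seen. Ugt1a6a was at 53.1 ± 7.69 against 2.12 ± 1.48 normalized counts (4.58 ± 0.34), and Gsta1 at 102 ± 25.8 against 16.8 ± 3.39 (2.60 ± 0.22). The part of the receptor in these differences was not tested.

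Among alcohol dehydrogenases, reductases and oxidases, which make or remove the same aldehydes, 9 of 15 were higher and 3 lower, with a median of 0.23. Aox1, an oxidase that also acts on retinaldehyde, rose from 199 ± 5.01 to 739 ± 15.1 normalized counts (1.90 ± 0.06). Xdh, the xanthine oxidoreductase, was at 1513 ± 45.1 against 539 ± 36.0 (1.50 ± 0.06), Adh7, a retinol-active alcohol dehydrogenase, was higher by 1.29 ± 0.13, and Cbr1, a carbonyl reductase, by 1.07 ± 0.07. A further list held enzymes of routes that release aldehydes, not all of which release one themselves. Of its tested genes, 4 of 10 were higher and 3 lower, with a median of 0.11. Smox, the spermine oxidase, was at 7137 ± 611 against 4115 ± 198 (0.81 ± 0.06), and Phyh, of phytanic acid breakdown, was higher by 0.57 ± 0.08, Paox by 0.34 ± 0.12 and Aoc2 by 0.31 ± 0.07. Sgpl1, whose product hexadecenal is a substrate of the Aldh3a2 enzyme, was at 2513 ± 98.2 against 2720 ± 56.1 normalized counts and did not pass the test (-0.10 ± 0.04, adjusted p = 0.057, edgeR).

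The folate list leaned the other way, with 2 of 17 genes higher and 7 lower and a median of -0.09. Shmt2, the mitochondrial serine hydroxymethyltransferase, was at 6141 ± 339 against 8326 ± 597 normalized counts (-0.43 ± 0.05), and the folate carrier gene Slc19a1 was lower by -0.39 ± 0.06 on the log2 scale. Mthfd2, of the mitochondrial folate route that Aldh1l2 also belongs to, was at 1367 ± 91.4 against 1658 ± 27.7 (-0.27 ± 0.05), and Gcsh, of the glycine cleavage system, at -0.20 ± 0.06. The 2 genes that were higher, named after their values were seen, belong to that same system, Gldc at 22.6 ± 3.39 against 7.33 ± 1.91 (1.61 ± 0.27) and Amt at 40.2 ± 3.27 against 27.2 ± 2.56 (0.58 ± 0.17). In the lysine and carnitine list, none of the 3 tested genes, Gcdh, Shmt1 and Slc22a5, differed in either direction at an adjusted p of 0.05 (edgeR), with log2 fold changes of 0.15, 0.06 and -0.01, and 6 of its 9 genes were too scarce to test or not analysed here.

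**Figure D5:**
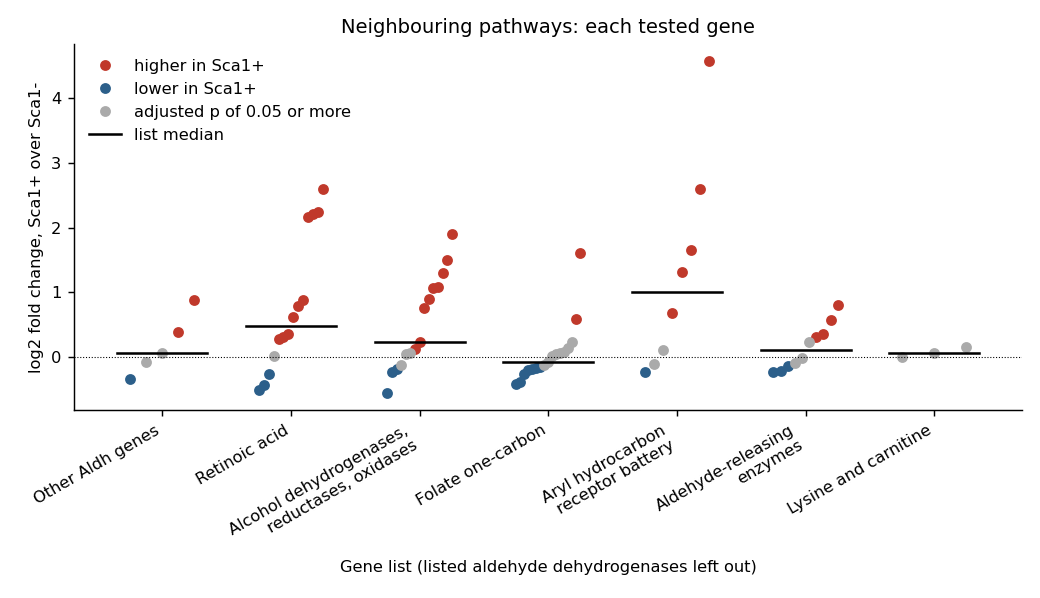
log2 fold change of Sca1+ over Sca1- for every tested gene of 7 lists around the family, 1 point per gene, colored by call, with a bar at each list's median. The aryl hydrocarbon receptor list has the highest median at 1.00 and the folate list the lowest at -0.09.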

How the data were processed

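RNA-Seq was performed on 8 libraries, 4 per group, made with a TruSeq kit that does not mark strand and sequenced on a NextSeq 500. Per the submitters' processing notes, cutadapt 1.16 and STAR 2.5.3a were used with GRCm38 and mm10. The counting tool, annotation, use of strand and read length were not given in the sources used here. The authors deposited raw counts per Ensembl gene and a table of normalized signal for 15372 genes. The deposited signal equaled counts divided by DESeq2 size factors, and these are the normalized counts given here. Neither table held columns of other samples.

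Counts were tested with edgeR 4.0.16 in R 4.3.3 (TMM scaling, filterByExpr, quasi-likelihood F test, two-sided, Benjamini-Hochberg over 11717 genes, threshold 0.05). The SE is the log2 fold change over the square root of F. Gene positions and exon lengths came from GENCODE M21 (GRCm38), where 16200 of 16341 counted genes were found. The library total in RPKM and CPM was that over the 11717 tested genes, after TMM scaling. The 95% intervals are normal intervals from the SE. Low-count members are limited by counting error. Alternatives were other scalings and filters, DESeq2 1.42.0, limma 3.58.1 (voom, and on log2 of the normalized table plus 1 or 0.5), a replicate block, GC-corrected offsets, stricter thresholds and leaving out each library. The code was tested on simulated data.

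The members and lists were chosen with earlier results of these data known. All members and other counted Aldh genes are named. So are the 7 counted fibroblast markers, added after their values were seen except for Pdgfra. Each list gives up to 4 names, its called genes of the largest absolute log2 fold change, provided that their normalized counts average 100 or more. Added to these after their values were seen, or as direct partners, are Rdh10, Cyp1a1, Ugt1a6a, Gsta1, Sgpl1, Gldc, Amt, S100a8, Csf1r, Cd74, Tie1, Gcdh, Shmt1, Slc22a5, Dhrs7b, Usp22, Kcnj12, Phax, D10Wsu102e, Pih1d1 and Ptprc.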

Additional observations from a re-analysis of the deposited data

Results flagged for a closer look

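A library of a group of 4 was set apart when its gap to the nearest other library, as a part of the group's range, passed Dixon's 95% critical value. Of 58 such group tests on the levels, ratios and shares of the family, 3 met this, where chance gives about 2.9. The normalized count of Aldh1b1 was 5.13 in Sca1- replicate 2 against 8.91 to 9.55 in the other Sca1- libraries. The log2 ratio of Aldh2 to Aldh1b1 was 10.9 in the same library against 9.81 to 9.99 in the others, and it rests on that same Aldh1b1 value of 5 counts. Aldh3b2 was at 1.11 normalized counts in Sca1- replicate 3, which is a single count, and at 0 in the other Sca1- libraries.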

How the results depend on the processing

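Aldh3a1, Aldh3a2, Aldh3b1 and Aldh2 kept their direction and call under all 19 alternative fits, and Aldh1a1 under the 18 that tested it. The count of members higher was 5 or 6 except with a log2 fold change of at least 1, where it was 1 (Aldh3a2 missing it at 0.999), and 5 to 6 when a library was left out. The count of members lower was 0 with library totals alone, with upper-quartile scaling, at an adjusted p under 0.01 and with a log2 fold change of at least 1, and 0 to 1 when a library was left out. Aldh5a1, not called in any setting, ran from -0.012 (without Sca1- replicate 2) to 0.12 when a library was left out, and Aldh4a1 was called lower with GC-corrected offsets (-0.22). The causes were not tested.

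With no division by length, the share of Aldh3a1 was 28.4% in Sca1+ and 4.98% in Sca1-, and that of Aldh2 was 47.3% and 64.7%. With the longest transcript as length, Aldh3a1 was at 45.1% and 9.92% and Aldh2 in Sca1+ at 33.6%. Over all counted Aldh genes, Aldh3a1 was at 46.1% and 9.69% and Aldh2 at 29.2% and 47.7%.

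Same-numbered libraries did not deviate together (correlations of -0.15 to 0.10). Differently numbered libraries were not compared, so this cannot tell whether same-numbered libraries were prepared together. With the replicate block, 5 members were higher and 1 lower, Aldh9a1 losing its call (adjusted p = 0.064, edgeR, and 0.0080 to 0.15 over its 19 alternative fits). The block left the differences of the log2 ratios at 2.23 and 0.97 (exact sign-flip test, p = 0.125 each, the smallest 4 pairs allow). The ratio of Aldh1a1 to Aldh1a3 was not run, since Aldh1a3 was not analysed here. Depth limits Aldh1a1, Aldh1b1 and Aldh1l2, at 4 to 33 counts per library.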
